A study of Mus musculus with 4 samples.

Results

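The Sub1-Zfr-Mtmr12 interval is a stretch of 326.4 kb of mouse chromosome 15 (chr15:11904001-12230400, mm9) that holds the protein-coding genes Sub1, Zfr and Mtmr12. It was delimited by position alone, as all pairs of 6.4-kb bins with both bins inside these limits, which gave 51 bins and 1326 bin pairs. The captured region on chromosome 15 around it has 456 bins and 104196 possible bin pairs, and 293610 bin pairs carried signal in at least 1 library over everything captured. Sub1 encodes the transcriptional coactivator PC4, Zfr encodes a zinc finger protein that binds RNA, and Mtmr12 encodes a catalytically inactive member of the myotubularin phosphatase family. Contact maps measure no RNA, so neither the expression of these genes nor the identity of the cells could be checked against marker genes here.

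Cohesin is a ring complex that is thought to extrude chromatin into loops until it meets a barrier, of which the DNA-binding protein CTCF in the matching orientation is the best known. Sequences between such barriers contact each other more often than sequences outside, which appears in contact maps as topologically associating domains (TADs), with corner peaks and stripes that start at the barriers. Acute loss of the cohesin subunit RAD21 removes loops and weakens TAD boundaries, while contacts between chromatin of the same activity state can persist. Comparing maps before and after RAD21 loss therefore asks which contacts of an interval need cohesin.

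Tiled Capture-C, in which proximity-ligated DNA is enriched with oligonucleotides tiled over whole regions, gave 4 libraries, 1 per group, all from the mouse embryonic stem cell line E14. All 4 came from clonal lines that carried heterozygous TetO and LacO operator arrays within a TAD upstream of the interval, came from a line described as a double knockout for internal CTCF sites of that TAD, and had both copies of RAD21 fused to HaloTag and FKBP. Line 1B1 had convergent 3xCTCF sites at the arrays, line 1A2 was derived from 1B1 by removal of these sites, and line 1F4 had no such sites but kept the promoters that drive the resistance genes. The last library was 1B1 treated with dTAG-13 at 500 nM for 2 h, which directs FKBP-fused proteins to degradation (1B1 with cohesin degraded, or the treated library). Neither array lies inside the interval, 1A2 and 1B1 share their origin, and each line was a single clone, so that clone and genotype cannot be told apart. With 1 library per group no test over replicates exists and no p-value is given: differences between libraries are set beside counting error (±, 1 SD from recovered reads) and beside the spread between the 3 untreated libraries, and no difference has a replicate check.

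The interval held 106037 (1A2), 137985 (1F4), 101795 (1B1) and 124286 (treated) read pairs, or 8.65%, 8.85%, 8.33% and 9.04% of those of the captured region. Of its 1275 pairs of different bins, 98.1% to 98.5% held at least 1 read, with a median of 18 to 28 reads. One bin in the stretch between Sub1 and Zfr, 11987201 to 11993600, was sparsely read in all 4 libraries, with 183 to 241 off-diagonal reads against a median of 2323 to 3063 per bin. Values of the gap before Zfr as a whole, and insulation squares that reach the bin, include it, and the main ones are given also without it. Contacts are given as observed/expected values, the balanced signal divided by the mean at the same separation over the captured region, averaged over windows of 3 by 3 bins with centres at least 4 bins apart. An observed/expected value of 1 is thus the average of the region at that distance.

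In the annotation, Sub1 spans 11911094 to 11926738 on the minus strand, Zfr spans 12047586 to 12115438 on the plus strand and Mtmr12 spans 12134783 to 12201995 on the plus strand. Their starts are 121 kb (Sub1 to Zfr), 87.2 kb (Zfr to Mtmr12) and 208 kb (Sub1 to Mtmr12) apart. A U6 snRNA gene and Mir1898 are annotated inside Zfr. A stretch of 120 bases at each promoter, chosen outside every annotated exon, is shown because the bins that hold these stretches are the viewpoints of the promoter contacts below. The stretches end 51 (Sub1), 20 (Zfr) and 0 (Mtmr12) bases before the RefSeq start. They come from RefSeq promoters (GRCm38.p6), each of which matched mm9 at 1 place, capitals mark GGGCGG, and the bases follow the direction of transcription.
Sub1 promoter, chr15:11925814-11925933, minus strand: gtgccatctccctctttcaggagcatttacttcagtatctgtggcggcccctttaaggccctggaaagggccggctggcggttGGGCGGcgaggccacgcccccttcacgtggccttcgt
Zfr promoter, chr15:12047466-12047585, plus strand: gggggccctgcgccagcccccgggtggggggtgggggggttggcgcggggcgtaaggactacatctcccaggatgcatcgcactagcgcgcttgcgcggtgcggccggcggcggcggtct
Mtmr12 promoter, chr15:12134663-12134782, plus strand: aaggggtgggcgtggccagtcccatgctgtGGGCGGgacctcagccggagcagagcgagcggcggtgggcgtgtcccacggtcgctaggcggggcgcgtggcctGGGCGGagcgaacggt

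All 3 stretches were rich in G and C, at 63.3% (Sub1), 76.7% (Zfr) and 75% (Mtmr12), against a median of 54.2% over 27025 RefSeq promoters. They held 8, 15 and 15 CpG dinucleotides against a median of 3. These promoters were read over the 120 bases directly before the RefSeq start, with exons not removed. The Sub1 and Zfr stretches lie further upstream, so length is matched but position is not. GGGCGG, searched on both strands, occurred in the Sub1 and Mtmr12 stretches and not in that of Zfr, and was present in 26.9% of the 27025 promoters. CCAAT, also searched on both strands, was in none of the 3 and in 22.1% of all. The Sub1 stretch lies upstream of the RefSeq start but inside the longer annotated gene.

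The core of the CTCF motif was searched on both strands of mm9 as CCA, any 2 bases, AGG, any 1 base and GGC, a spelling kept after several had been scanned over the region, so its matches describe the sequence and are not called sites. It matched 29 times in the region, in 5.92% of bins, and 7 times in the interval, in 13.7% of its bins. In the interval 2 matches were on the plus strand and 5 on the minus strand. No match fell within Sub1 or Zfr, while 3 minus-strand matches lay in introns of Mtmr12 and 1 more lay shortly past its end. A looser spelling, with any base at the last position of AGG, matched 36 times in the interval. It was in 52.9% of bins there against 30.0% in the region, with 20 matches on the plus strand and 16 on the minus strand, some in Zfr introns. The first spelling is used from here on. Shown with their flanks are the matches in or next to a bin of a boundary or focal contact described below, and the one upstream of Zfr, which enters both motif pairs described singly, with the match in capitals and all read along the strand of the match.
Upstream of the interval, chr15:11896316-11896327, minus strand: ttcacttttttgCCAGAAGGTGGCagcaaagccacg
Upstream of Zfr, chr15:12038132-12038143, plus strand: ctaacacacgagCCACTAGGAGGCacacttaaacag
Mtmr12 intron, chr15:12178206-12178217, minus strand: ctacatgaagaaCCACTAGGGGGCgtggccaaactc
Mtmr12 intron, chr15:12187323-12187334, minus strand: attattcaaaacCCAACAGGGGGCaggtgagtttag
Mtmr12 intron, chr15:12197970-12197981, minus strand: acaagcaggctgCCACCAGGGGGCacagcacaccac
Past the Mtmr12 end, chr15:12203734-12203745, minus strand: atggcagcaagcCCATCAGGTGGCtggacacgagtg

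The 4 maps showed 2 kinds of enriched contact in untreated cells (map of the interval by library). A stripe ran from the upstream edge and Sub1 across the stretch between Sub1 and Zfr and into Zfr, and a patch joined the Zfr gene and the stretch behind it to the 3' part of Mtmr12. After cohesin degradation the stripe was largely absent up to the Zfr start, the patch remained over the Zfr gene but not over the stretch behind it, and the Zfr gene contacted its own 3' end more. The blue band in the stretch between Sub1 and Zfr runs through the sparsely read bin in all 4 maps.

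**Figure D1:**
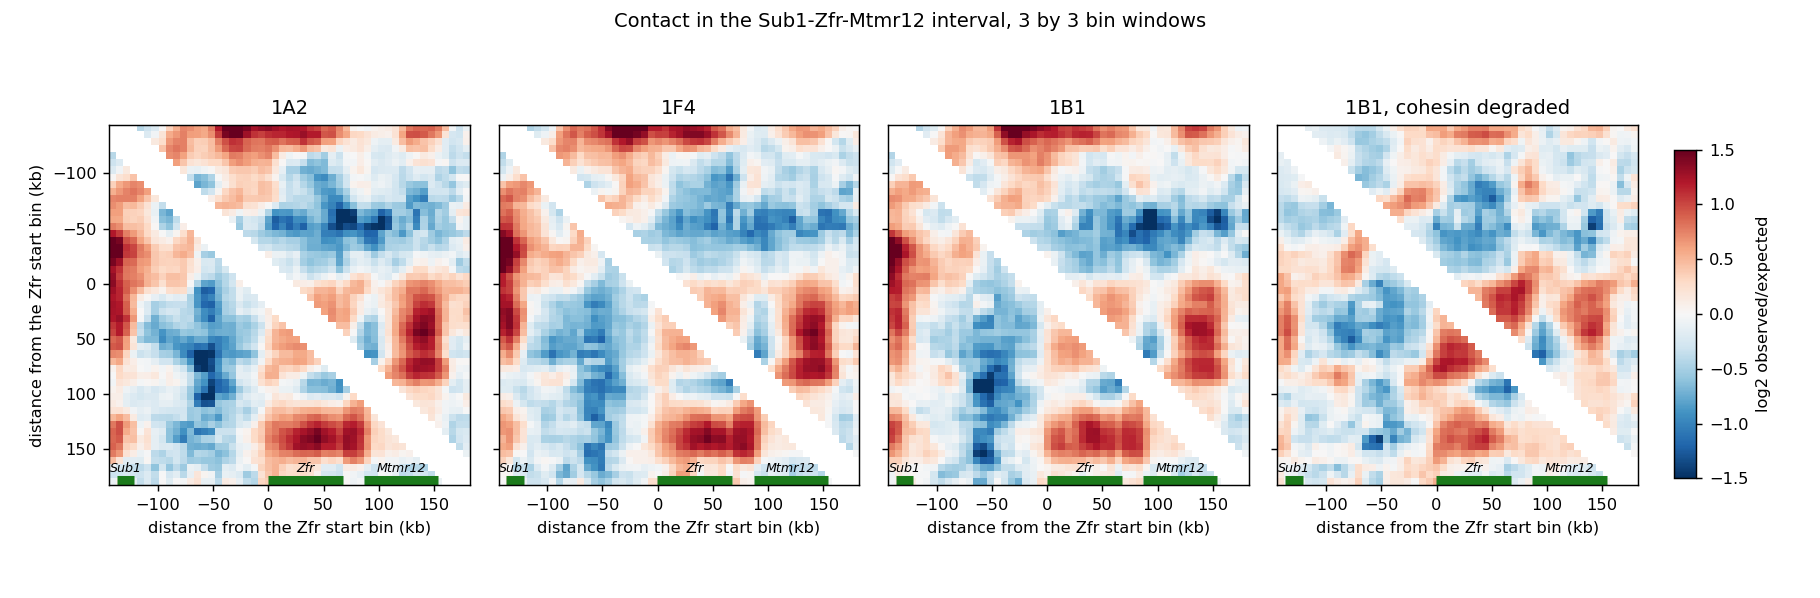
Log2 observed/expected contact of 3 by 3 bin windows in the interval for the 4 libraries, with both axes in kb from the bin of the Zfr start and genes as green bars. Windows closer than 4 bins are left blank. The red stripe at the upper edge is strong in 1A2, 1F4 and 1B1 and weak with cohesin degraded, while the red patch between Zfr and Mtmr12 is present in all 4.

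Insulation was read as the log2 of the mean balanced contact across each bin, in squares of 10 by 10 bins, relative to the region mean, so that low values mark boundaries. Of the 15 boundaries called from 1A2 and 1F4 in the region, 3 lay in or at the edge of the interval. The lowest score of the 3 lay in the bin just upstream of the interval, 11897601 to 11904000, where untreated scores were -1.26 ± 0.05 (1A2), -1.45 (1F4) and -1.26 (1B1), and -0.50 with cohesin degraded. It was thus higher, that is weaker as a boundary, by 0.76 ± 0.06 against 1B1, while untreated lines differed there by up to 0.20. With squares of 20 by 20 bins the difference to 1B1 was 0.20. The second lay in the bin of the Zfr start, 12044801 to 12051200, and scored -0.55 (1A2), -0.52 (1F4), -0.53 (1B1) and -0.61 (treated). The difference of -0.08 ± 0.07 to 1B1 was close to its counting error, and this bin was the lowest of the interval in the treated library. The third lay in the bin of the Mtmr12 end, 12198401 to 12204800, and was shallow, at -0.13, -0.16, -0.11 and -0.03.

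Over the 15 boundaries of the region, the score of the treated library minus that of 1B1 was between -0.57 and 0.76, with the upstream edge at the top of this range. The 51 bins of the interval had higher scores than in 1B1 at 22 bins and lower scores at 29, near the share over the region, where 47.9% of 436 bins had higher scores. The SD of the difference over these bins was 0.33, against 0.05 for 1F4 minus 1A2, 0.05 for 1B1 minus 1A2 and 0.08 for 1B1 minus 1F4, and against 0.28 over the region for the treated library. In untreated libraries the highest score, 0.70 to 0.79, lay within the 5' part of Mtmr12, and with cohesin degraded the highest score of 0.72 lay inside Zfr, at 12089601 to 12096000, where untreated libraries had 0.28 to 0.31. Between Zfr and Mtmr12, at 12121601 to 12128000, the treated score was -0.04 where untreated libraries had 0.20 to 0.25. Between Sub1 and Zfr, at 11961601 to 11968000, it was -0.30 where untreated libraries had 0.44 to 0.59, the most negative difference in the interval (-0.73 against 1B1, and -0.76 without the sparsely read bin).

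**Figure D2:**
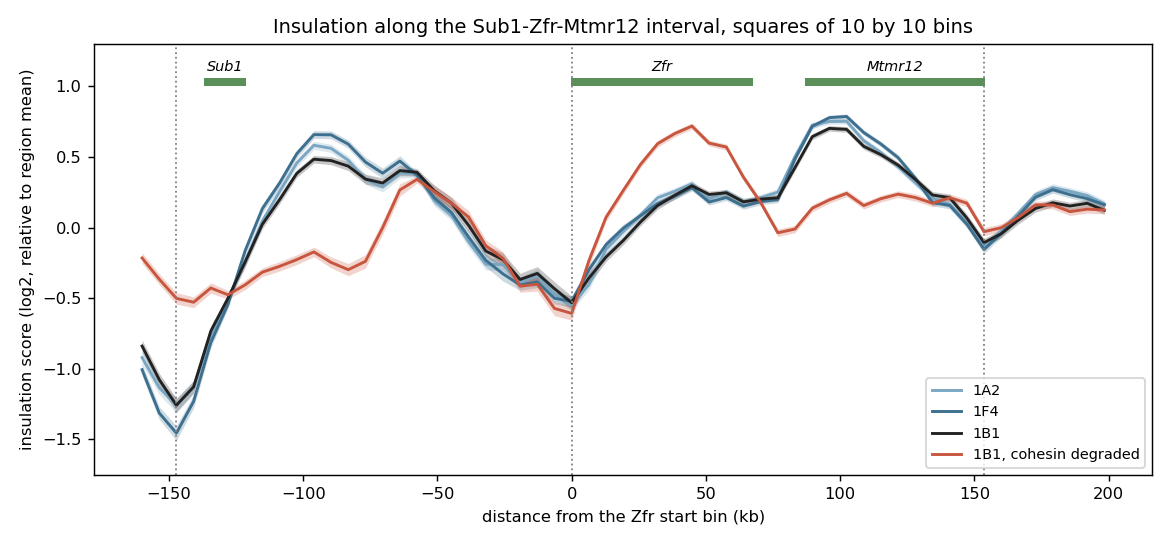
Insulation score (log2, squares of 10 by 10 bins) against distance in kb from the bin of the Zfr start, with counting error as shading, boundaries called in 1A2 and 1F4 as dotted lines and genes as green bars. With cohesin degraded the minimum at the left edge is shallower (-0.50 against -1.26 in 1B1), the minimum at the Zfr start is kept (-0.61 against -0.53), and the maximum lies in Zfr instead of Mtmr12.

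The 3 promoters contacted each other in different ways. The window of the Sub1 and Zfr starts had observed/expected values of 1.75 ± 0.0926 (1A2), 1.44 ± 0.0753 (1F4), 1.76 ± 0.0939 (1B1) and 1.21 ± 0.087 (treated). The treated library was the lowest of the 4, and its log2 ratio to 1B1 was -0.54 ± 0.13, where other windows of the region at that separation had an SD of 0.47. It rested on 433 reads in 1B1 and 234 reads in the treated library. The window of the Zfr and Mtmr12 starts had 1.27 ± 0.0869 in 1A2, 1.22 ± 0.0758 in 1F4, 1.11 ± 0.0758 in 1B1 and 1.62 ± 0.0986 with cohesin degraded. Here the treated library was the highest, with a log2 ratio to 1B1 of 0.54 ± 0.13 and an SD of 0.44 over other windows at that separation. The central bin pair of this window held only 16 to 26 reads and gave 0.06 ± 0.50 by itself. The window of the Sub1 and Mtmr12 starts had 1.06 ± 0.0891, 0.854 ± 0.0729, 1.05 ± 0.0869 and 1.10 ± 0.111 in the same order, and its log2 ratio of 0.06 ± 0.19 was within counting error. Without division by the expected value, which leaves in the decay with distance, this ratio was -0.58 ± 0.19.

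No promoter pair was a peak over its surroundings, since the window divided by the ring around it was between 0.79 and 1.23 in all 4 libraries. For comparison, the 22 other pairs of protein-coding starts in the region 60 to 320 kb apart had a median observed/expected of 0.963 to 1.04 in untreated libraries and 1.12 with cohesin degraded. Of these, 7 were lower and 15 higher than in 1B1, against 1 lower and 2 higher among the 3 pairs of the interval.

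Read from each promoter in turn, some contacts were lower and others higher with cohesin degraded. From the Sub1 start, the highest window of untreated libraries lay 89.6 to 96 kb away on the side of Zfr, in the gap before it, at 2.02 ± 0.129 in 1A2, 2.00 ± 0.0847 in 1F4 and 1.96 ± 0.123 in 1B1. Between 11 and 13 of the 44 windows from Sub1 were at 1.5 or above in untreated libraries and 0 were with cohesin degraded, where the highest was 1.21 ± 0.0994. The same count was 9, 3 and 9 (1A2, 1F4, 1B1) and then 11 from Zfr, and 4, 7 and 4 and then 7 from Mtmr12. Untreated lines alone thus ranged from 3 to 9 from Zfr and from 4 to 7 from Mtmr12. Over the region, 10.0% of windows were at 1.5 or above in both 1A2 and 1F4. The share in the treated library alone was not computed, so these counts have no matching background. From the Zfr start, the highest window in untreated libraries was the upstream edge of the interval, at 2.55 ± 0.135, 2.26 ± 0.111 and 2.42 ± 0.125 in 1A2, 1F4 and 1B1, against 1.49 with cohesin degraded. The treated library had its own highest window 76.8 kb on the other side, at 12121601 to 12128000, just past the 3' end of Zfr, with 2.24 ± 0.113 where untreated libraries had 1.19 to 1.41. From the Mtmr12 start, the highest window of untreated libraries was inside the gene, 44.8 kb downstream, at 1.69 ± 0.0816, 1.81 ± 0.0752 and 1.62 ± 0.0761. It had 1.22 with cohesin degraded, whose highest window of 1.65 ± 0.16 lay 102.4 kb upstream, before the Zfr start, where untreated libraries had 0.895 to 0.943.

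**Figure D3:**
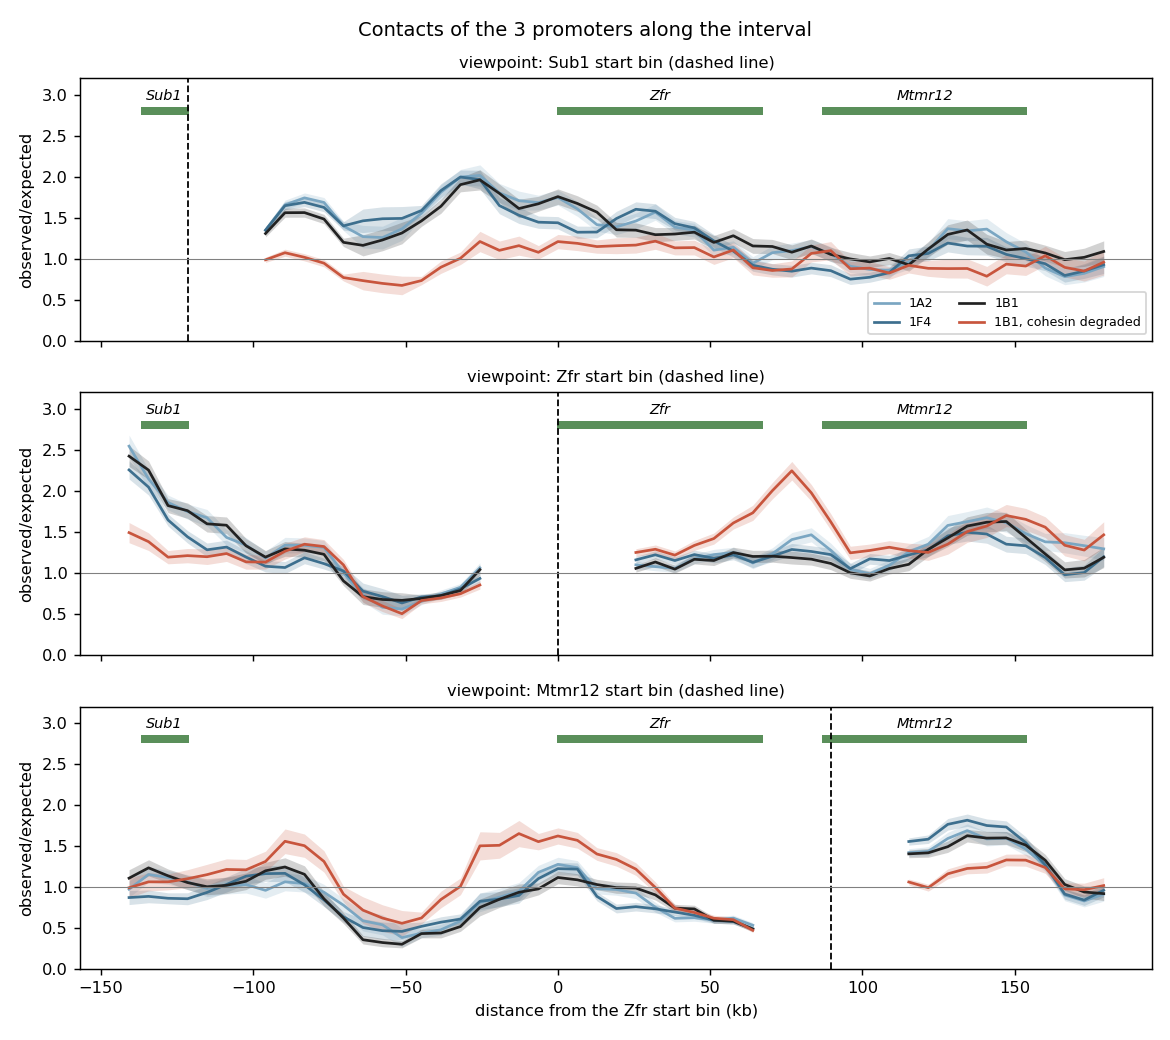
Observed/expected contact of the bins holding the Sub1, Zfr and Mtmr12 starts (dashed lines) with the rest of the interval, against distance in kb from the bin of the Zfr start, with counting error as shading. From Sub1 the treated line stays at or below 1.21, and from Zfr it peaks at 2.24 just past the Zfr 3' end.

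The 2 small RNA genes share the Zfr gene body. The window of the U6 bin and the Zfr start had 1.05, 1.15, 1.04 and 1.22 in 1A2, 1F4, 1B1 and the treated library, and that of the Mir1898 bin and the Zfr start had 1.22, 1.18, 1.15 and 1.42. Both were highest with cohesin degraded, with log2 ratios to 1B1 of 0.22 ± 0.09 and 0.30 ± 0.10. For U6 the treated 1.22 ± 0.0508 and the 1.15 ± 0.0467 of 1F4 overlapped within counting error. With the Mtmr12 start, the Mir1898 bin had 0.591 to 0.617 in all 4 libraries and the U6 bin 0.616 to 0.741. With the Sub1 start, the treated values of 1.13 (U6) and 1.02 (Mir1898) were the lowest of the 4, against 1.3 and 1.2 in 1B1, and their log2 ratios of -0.20 ± 0.14 and -0.23 ± 0.16 were below 2 counting errors.

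The boundaries were contacted by the promoters as follows. The Zfr start with the upstream edge boundary had 2.29, 2.03 and 2.20 in 1A2, 1F4 and 1B1 and 1.31 with cohesin degraded (log2 ratio -0.75 ± 0.16). The Zfr start with the boundary at the Mtmr12 end had 1.48, 1.33 and 1.43 and then 1.65 (0.21 ± 0.16). The Sub1 start with the nearby upstream boundary, 25.6 kb away, had 0.617, 0.545 and 0.607 and then 0.853 (0.49 ± 0.09), so that this depleted contact was less depleted in the treated library. The Sub1 start with the Mtmr12 end had 0.911 after treatment against 1.00 to 1.12, and the Mtmr12 start with its own end had 1.33 against 1.46 to 1.54. Their log2 ratios of -0.30 ± 0.22 and -0.19 ± 0.11 were below 2 counting errors. The Mtmr12 start with the upstream boundary had 0.79, within the untreated range of 0.688 to 0.928. The U6 and Mir1898 bins with the upstream boundary had 1.14 and 0.987 in the treated library against 1.49 and 1.22 in 1B1 (-0.39 ± 0.18 and -0.31 ± 0.21). With the Mtmr12 end they had 1.5 and 1.29 against 1.75 and 1.67 (-0.23 ± 0.13 and -0.37 ± 0.13). The ratios of -0.31 and -0.23 were below 2 counting errors.

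To describe whole genes, the interval was divided by the annotation into 7 zones, the 3 genes, the gaps between them and the 2 edges, and mean observed/expected values were taken over all bin pairs of 27 zone pairs. The treated library was below all 3 untreated libraries in 13 zone pairs, above them in 10 and within their range in 4. Single windows of the region, of 3 by 3 bins, lay below in 34.1% and above in 41.5%. Zone pairs average 3 to 198 bin pairs, and no regional share was computed for averages of their size. These counts alone thus do not set the zones apart. The size of the differences did vary between zones. In the 24 zone pairs with at least 100 reads in each library, 1F4 and 1A2 differed by at most 0.16 in log2, and 1B1 and 1A2 by at most 0.34.

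Contacts of the upstream edge and Sub1 with the gap before Zfr, and of the gap behind Zfr with Mtmr12, were lower. Sub1 with the gap before Zfr had 1.53 ± 0.035 in 1A2, 1.66 ± 0.0372 in 1F4, 1.51 ± 0.0351 in 1B1 and 0.905 ± 0.0307 with cohesin degraded, a log2 ratio to 1B1 of -0.74 ± 0.06. The gap between Zfr and Mtmr12 had 1.81 ± 0.0433, 1.86 ± 0.0395 and 1.66 ± 0.0403 with Mtmr12 in untreated libraries and 1.01 ± 0.0322 in the treated library (-0.72 ± 0.06). The upstream edge with the gap before Zfr had 2.10, 2.34 and 1.98 and then 0.927 ± 0.0616, the greatest difference of all zone pairs (-1.09 ± 0.12). In each of these the treated value was near or below the average of the region at that distance.

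Contacts between 2 genes differed less than the contacts with the gaps listed above. Sub1 with Zfr had 1.79 ± 0.0494, 1.76 ± 0.0443 and 1.69 ± 0.0463 in untreated libraries and 1.45 ± 0.0518 in the treated library (-0.22 ± 0.06). Zfr with Mtmr12 had 1.57 ± 0.0264, 1.54 ± 0.0238 and 1.5 ± 0.0248 and then 1.37 ± 0.0267 (-0.14 ± 0.04). Both were lower than in every untreated library and stayed above the regional average. Sub1 with Mtmr12, the most distant genes, had 1.2, 1.09 and 1.22 and then 0.991 ± 0.0524 (-0.30 ± 0.10). Ratios as small were not limited to gene pairs. The gap before Zfr was at -0.15 ± 0.05 with Zfr and 0.15 ± 0.06 with Mtmr12. Zfr was at -0.14 ± 0.09 with the downstream edge and -0.23 ± 0.15 with the upstream edge.

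Contacts within Zfr and from Zfr to the gap behind it were higher. Zfr with itself had 1.31, 1.31 and 1.3 in untreated libraries and 1.57 ± 0.0209 with cohesin degraded (0.28 ± 0.03). Zfr with the gap before Mtmr12 had 1.18 ± 0.0338, 1.09 ± 0.0288 and 1.17 ± 0.0335 and then 1.74 ± 0.0425, the highest ratio of all zone pairs (0.57 ± 0.05). Mtmr12 with itself had 1.13, 1.17 and 1.15 and then 1.17 ± 0.0169, a log2 ratio of 0.02 ± 0.03. The 2 gaps, separated by the Zfr gene, had 0.777, 0.786 and 0.808 with each other and then 1.18 ± 0.0632 (0.55 ± 0.11), so that a contact below the regional average in all untreated libraries was above it in the treated one. Without the sparsely read bin, the log2 ratios that involve the gap before Zfr were -0.74 with Sub1, -1.04 with the upstream edge and 0.53 with the gap behind Zfr.

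**Figure D4:**
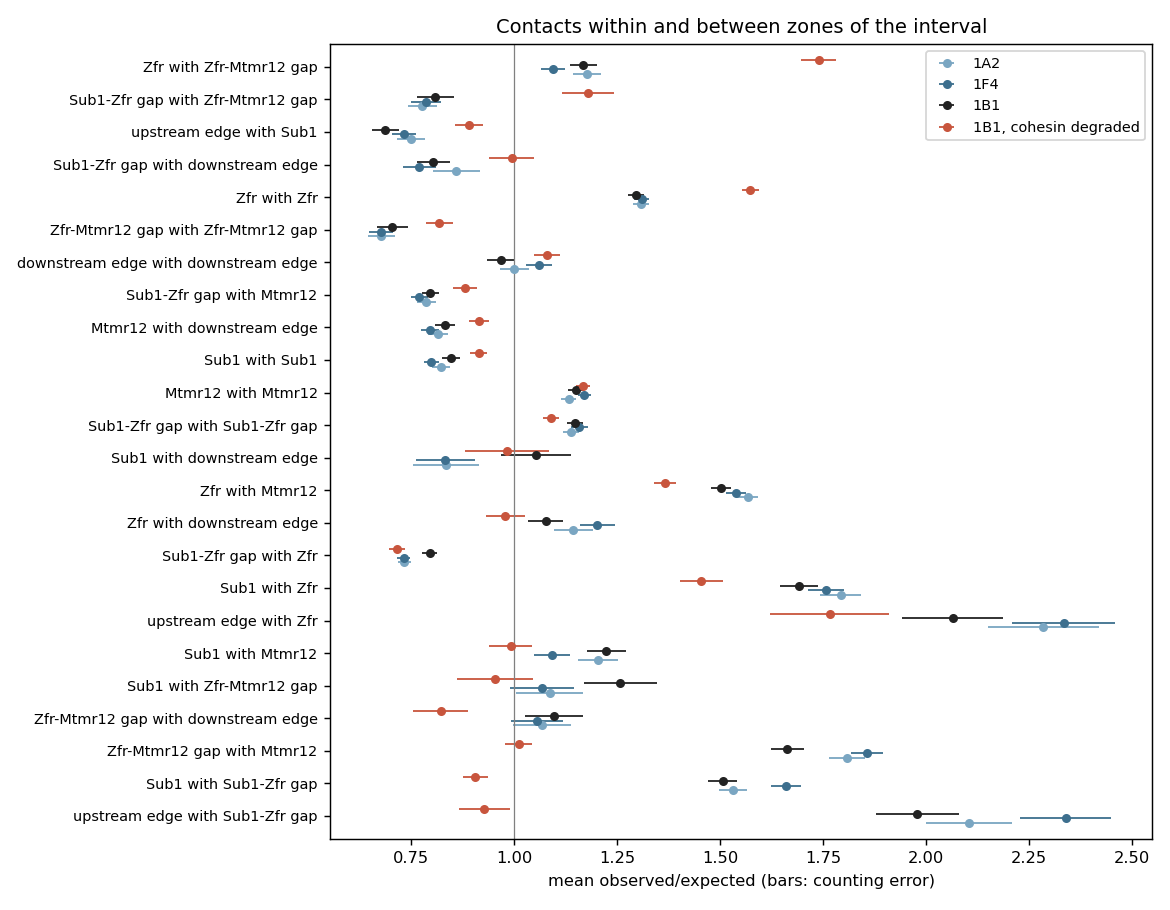
Mean observed/expected contact (x axis, bars are counting error) for the 24 zone pairs with at least 100 reads in each library, ordered by the log2 ratio of 1B1 with cohesin degraded over 1B1. The untreated libraries lie close together, the treated library is far lower for the edge and Sub1 with the gap before Zfr (0.927 and 0.905) and far higher for Zfr with the gap behind it (1.74).

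Contacts that kept or lost enrichment were counted among windows with an observed/expected of at least 1.5 in both 1A2 and 1F4, so that the 1B1 libraries took no part in their choice. There were 175 such windows among the 1128 of the interval (15.5%), against 10.0% in the region. Neighbouring windows share bin pairs and are not independent. In 1B1, 161 of the 175 (92%) were still at 1.5 or above, with a median of 1.84. With cohesin degraded, 66 (37.7%) were, with a median of 1.31, and 27 were under 1. This share depends on the setting. It was smaller at a level of 2 and larger at a level of 1.3 or with unbalanced reads, with counts in the closing section. In the region outside the interval, 83.8% of 1829 enriched windows were still at 1.5 in 1B1 and 43.4% were after degradation. The gap between 37.7% and 43.4% lay in windows under 60 kb, where 6 of 34 were still enriched after degradation in the interval (17.6%) against 41.7% of 60 outside, while at 60 kb and over it was 42.6% against 43.4%.

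The windows divided by zone. All 31 enriched windows of Sub1 with the gap before Zfr were under 1.5 after degradation, whereas 24 of them were at or above it in 1B1. All 22 of the gap behind Zfr with Mtmr12 were likewise under it, against 21 at or above it in 1B1, and so were all 4 of Sub1 with Mtmr12. The upstream edge with the gap before Zfr kept 1 of 11. In contrast, Zfr with Mtmr12 kept 41 of 56, Sub1 with Zfr kept 12 of 21, the upstream edge with Zfr kept 6 of 10, and Zfr with itself kept 6 of 6. Mtmr12 with itself kept 0 of 4, of which 3 were at or above 1.5 in 1B1. The gap before Zfr with itself kept 0 of 5, but only 2 of these were at or above 1.5 in untreated 1B1. The gap behind Zfr with the downstream edge kept 0 of 3, and the upstream edge with Mtmr12 kept 0 of 2. Another 54 windows of the interval were at 1.5 or above with cohesin degraded and in no untreated library, 4.79% of its windows against 2.42% outside. Of these, 18 joined Zfr to the gap behind it, 8 lay within Zfr, 11 within the gap before Zfr and 6 between the 2 gaps. These 54 were picked by the treated library itself and are a description of it. With the sparsely read bin left out and the expected values computed again without it, 171 windows were enriched, 158 of them still in 1B1 and 65 in the treated library, none of the 29 of Sub1 with the gap before Zfr among the latter, and 52 were enriched in the treated library alone.

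Over all windows, 106 of 1128 were at least 1.5-fold lower than in 1B1 with cohesin degraded (9.4%), next to 9.53% of 20022 windows over the region, and 94 were at least 1.5-fold higher (8.33%), next to 13.3%. The share of lower windows was thus close to that of the region and the share of higher windows was smaller. These counts depend on the processing. Without division by the expected value far more windows were lower and far fewer higher, and unbalanced reads gave fewer higher windows, as the closing section lists. Of the 106 lower windows, 40 were among the 48 of Sub1 with the gap before Zfr. The gap behind Zfr with Mtmr12 gave 20 of its 27, and the upstream edge with the gap before Zfr 13 of its 18. Of the 94 higher windows, 39 were among the 198 of the gap before Zfr with Mtmr12, a smaller part of them than in the next zone pairs. The 2 gaps with each other gave 25 of 54, and Zfr with the gap behind it 14 of 27. The gap before Zfr with the downstream edge gave 15 of 72. With the sparsely read bin left out and the expected values computed again without it, 93 windows were lower and 62 higher among the 996 that do not touch it. Between untreated libraries the counts were small. From 1A2 to 1F4, 10 windows were lower (0.887%, 2.19% in the region) and 14 higher (1.24%, 1.66% in the region). From 1A2 to 1B1, 18 were lower (1.6%, 1.45% in the region) and 19 higher (1.68%, 2.73% in the region). From 1F4 to 1B1, 6 were lower (0.532%, 1.48% in the region) and 10 higher (0.887%, 2.87% in the region). The comparisons share libraries and are not independent of each other.

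Focal contacts were local maxima at least 1.5 times the ring around them in both 1A2 and 1F4, and 4 were called in the interval. All 4 were also at least 1.5 times their ring in 1B1, 3 remained so with cohesin degraded and 1 did not. When called in 1B1 instead there were also 4, of which 3 remained so, but only the one at 11904001 and 12019201 had the same centre, and the others were at 11904001 and 12179201, 11955201 and 12128001, and 12089601 and 12179201. Outside the interval at the same separations, 10 of 15 focal contacts reached 1.5 in 1B1 and 8 of 15 in the treated library.

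The focal contact that was below 1.5 after degradation joined the upstream edge bin, 11904001 to 11910400, to 12019201 to 12025600 in the gap before Zfr, 115.2 kb apart. Its window over ring was 2.34 ± 0.133 (1A2), 2.89 ± 0.144 (1F4), 2.42 ± 0.138 (1B1) and 1.36 ± 0.145 (treated). Its observed/expected value was 3.44, 4.16, 3.43 and 1.27 in the same order, 0.371 of the 1B1 value. Neither bin holds a gene or a match to the motif.

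The focal contact between 2 genes on the downstream side had the smallest difference of the 4 in observed/expected value. It joined the Zfr gene at 12089601 to 12096000 to Mtmr12 at 12185601 to 12192000, 96 kb apart, and the Mtmr12 bin holds the motif match at 12187323 shown above. Its window over ring was 1.81 ± 0.0874, 1.73 ± 0.0787, 1.64 ± 0.084 and 1.86 ± 0.108, and its observed/expected value 2.83, 2.76, 2.41 and 2.24. The treated value was 0.931 of that in 1B1, with a log2 ratio of -0.10 ± 0.11.

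The other two joined the 3' end of Sub1, at 11910401 to 11916800, to the later genes. With the Zfr gene, at 12076801 to 12083200 and 166.4 kb away, the window over ring was 2.17 ± 0.115, 2.36 ± 0.113, 1.82 ± 0.0987 and 1.95 ± 0.144 and the observed/expected value 2.45, 2.62, 2.23 and 1.87. With Mtmr12, at 12179201 to 12185600 and 268.8 kb away, the window over ring was 2.24 ± 0.178, 1.95 ± 0.151, 2.03 ± 0.16 and 1.52 ± 0.185, so that the treated value lay at the threshold and within counting error of it. Its observed/expected value was 1.95, 1.61, 1.89 and 1.26, resting on 91 reads in the treated library. The bins on both sides of its Mtmr12 bin hold a motif match, at 12178206 and 12187323.

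**Figure D5:**
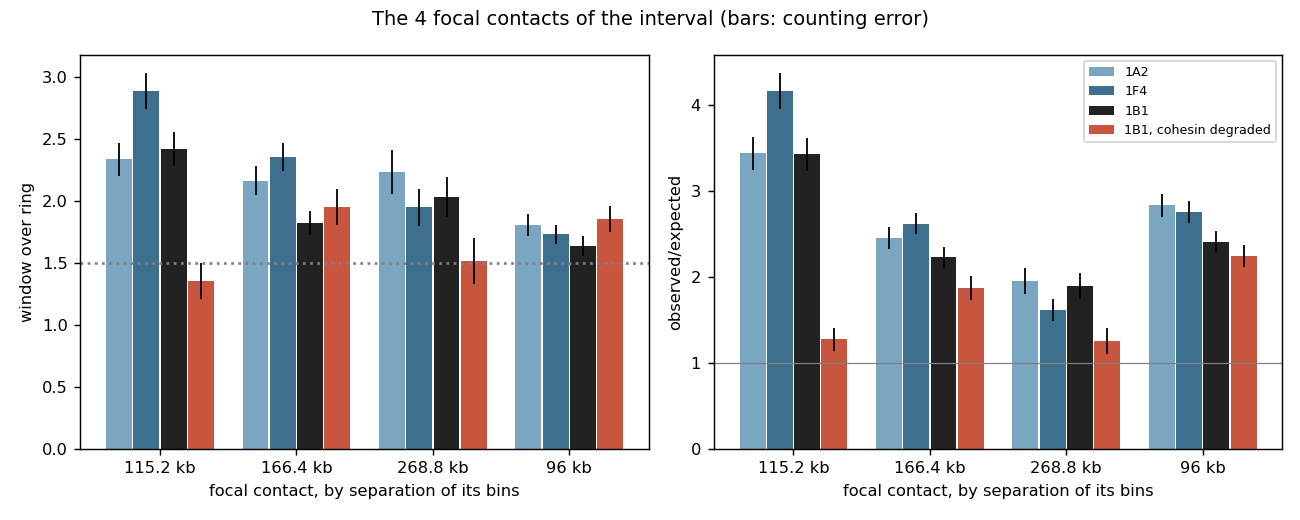
Window over ring (left, the threshold of 1.5 dotted) and observed/expected value (right) of the 4 focal contacts in each library, with counting error, named by the separation of their bins. The contact 115.2 kb apart is at 1.36 over its ring with cohesin degraded, while the one 96 kb apart is at 1.86.

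The windows with the greatest differences between the 1B1 libraries, among the 1054 with at least 50 reads in both, lay in the same places. The 5 lowest were chosen for this difference and are given as a description. Of these, 3 joined the upstream edge or the Sub1 3' end to the gap before Zfr. The first of these went from 2.84 in 1B1 to 1.01 with cohesin degraded (11910401 with 12012801, log2 ratio -1.48 ± 0.13), the next from 2.67 to 1.22 (11904001 with 12032001, -1.14 ± 0.18), and the third from 1.44 to 0.666 (11910401 with 11980801, -1.11 ± 0.28, in a window that includes the sparsely read bin). The others joined the gap behind Zfr, at 12121601, to Mtmr12 at 12185601 (2.20 to 1.19, -0.89 ± 0.12) and at 12166401 (1.72 to 0.941, -0.87 ± 0.10). In all 5 the untreated libraries 1A2 and 1F4 were also above the treated library.

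The 5 highest windows were chosen in the same way. The window of 12044801 with 12121601, from the Zfr start to just past its 3' end, went from 1.19 to 2.24 (0.92 ± 0.12) and had 259 reads in 1B1 and 457 in the treated library. The window of 12025601 with 12147201, from the gap before Zfr to Mtmr12, went from 0.615 to 1.31 (1.09 ± 0.22). The window of 11968001 with 12121601, between the 2 gaps, went from 0.73 to 1.28 (0.81 ± 0.21). The windows of 11993601 with 12128001 (0.37 to 0.88, 1.25 ± 0.50) and of 11980801 with 12204801 (0.506 to 0.925, 0.87 ± 0.51) include the sparsely read bin and had 51 to 76 reads in the 1B1 libraries. Without that bin their log2 ratios were 0.82 and 0.85. In all 5 windows 1B1 was the lowest of the 3 untreated libraries, so the ratios to 1B1 are greater than those to 1A2 or 1F4. The window of 12025601 with 12147201 had 0.875 in 1A2 and 0.762 in 1F4, and that of 11993601 with 12128001 had 0.441 and 0.589.

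Bins that hold the CTCF core match were paired by orientation, which is a description since no binding was measured here. The 8 convergent pairs, with the motifs facing each other, had a median observed/expected of 0.911, 0.93 and 0.915 in 1A2, 1F4 and 1B1 and 0.948 with cohesin degraded. Of these 8, 5 were lower than in 1B1 and 4 were below all 3 untreated libraries, next to 34.1% of all windows of the region and 38.8% of those of the interval, and the median log2 ratio to 1B1 was -0.12. All 8 join the match at 11968198 or 12038132 to a match in or past Mtmr12, so they share bins and are not separate members. Pairs of 12038132 had log2 ratios of -0.23 to -0.06, and those of 11968198 ranged from -0.19 to 0.51. The 4 divergent pairs had 1.21, 1.18 and 1.31 and then 0.862. Each was below all 3 untreated libraries, but the 4 pairs are made from only 4 motif bins and are not separate members. The 11 tandem pairs had 0.907, 0.854 and 0.984 and then 0.824, with 7 lower than in 1B1 and 4 below all 3 untreated libraries. The divergent pair with the greatest difference joined the match upstream of the interval (11896316) to that upstream of Zfr (12038132), at 1.79, 1.93 and 1.74 and then 0.93 (log2 ratio -0.90 ± 0.22). A tandem pair between 11968198 and 12038132, both on the plus strand in the gap before Zfr, went the other way, at 1.31, 1.09 and 1.25 and then 1.72 (0.46 ± 0.15).

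Contact was also read as a function of separation. Without division by the expected value, the mean balanced contact in the interval was higher with cohesin degraded than in 1B1 at separations up to 50 kb, with a log2 ratio of 0.21 ± 0.02, against 0.20 ± 0.01 in the region. It was lower at 50 to 100 kb by a log2 ratio of -0.34 ± 0.03, against -0.20 ± 0.01 in the region, which was the one band where the interval and the region differed by more than 2 counting errors. At 100 to 200 kb the ratio was -0.53 ± 0.03 against -0.50 ± 0.01, and at 200 to 320 kb it was -0.72 ± 0.06 against -0.67 ± 0.01. The ratios between untreated lines in these bands were between -0.19 and 0.28 in the interval. The sizes of the ratios to 1B1 depend on how the libraries are scaled, which the counting errors do not cover. Their values under other scalings are given in the closing section.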

How the data were processed

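The deposited values are a contact signal per pair of 6.4-kb bins, with a deposited bin table that gives each bin's start, end and number. Per the labels and the study's methods, the authors mapped read pairs to mm9 with HiC-Pro 2.11.4, kept unique valid pairs within the target regions and balanced the binned signal by iterative correction, so that all libraries have the same total. Reads were recovered by assuming that each balanced value is an integer scaled by the factors of its bins, and 100% of values came out within 0.05 of a whole number. No raw counts were used to check this, and every read number and counting error rests on it. These reads gave depth and Poisson counting errors, which cover counting only. Reads totalled 3214144 (1A2), 4089968 (1F4), 3234581 (1B1) and 3622612 (treated). Balancing assigns every bin about the same total, and both alleles are counted together. Alternatives changed the window, threshold, scaling, balancing and square size.

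Observed/expected values, windows, rings from 5 by 5 to 11 by 11 bins, insulation and zones were computed with numpy 2.4.6 and pandas 2.3.3, and the steps were tested on simulated data. A window at the edge of the interval reaches 1 bin outside it. Boundaries were minima within 5 bins of the mean of 1A2 and 1F4, at least 0.3 below the highest score within 15 bins on both sides. Focal contacts needed 100 reads in both libraries and a separation of 60 kb. Named windows were the pairs of annotated starts, each start with each boundary, all focal contacts, and the 5 windows with the lowest and the 5 with the highest ratio at least 3 bins apart. Genes came from GENCODE vM1. The members, lists and rules were chosen with earlier results of these data known.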

Additional observations from a re-analysis of the deposited data

How the results depend on the processing

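No paired analysis was possible because each group has 1 library. The treated library and 1B1 are the same clone, and 1A2 was derived from 1B1, but no such pair was repeated. All labels carry replicate number 1. The enriched-window measure with its alternatives, and those that leave out the sparsely read bin, were chosen after seeing the data. Of 400 recomputed values, 53 for single windows, zones and region bands and 30 for the main results moved by more than 1.96 counting errors or, for counts, by more than 1.5 times. Of 64 ratios of single windows, zones and region bands, 52 kept their sign in every alternative and 12 turned sign in at least 1, as did the Sub1-Mtmr12 pair, the promoter-pair median and the scores at the Zfr start and the Mtmr12 end. Log2 ratios are of 1B1 with cohesin degraded over 1B1. Without division by the expected value, which leaves in the decay with distance, Sub1-Zfr was at -0.96, Sub1-Mtmr12 at -0.58 and Zfr-Mtmr12 at 0.25, and 421 windows were 1.5-fold lower and 16 higher. With the central bin pair alone, Zfr-Mtmr12 was at 0.060 and the median of the 3 promoter pairs at -0.20. At 2-fold, 19 windows were lower and 14 higher. Higher windows numbered 58 with recovered reads without balancing and 62 without the sparsely read bin. With squares of 20 by 20 bins, the score at the upstream edge was higher by 0.20 and that at the Mtmr12 end differed by -0.026 and that at the Zfr start by 0.034, and with unbalanced reads the upstream edge was higher by 0.63. With each library scaled to an equal total outside the diagonal and its neighbour, the bands of separation had 0.43, -0.12, -0.31 and -0.50 from short to long, and with unbalanced reads scaled by the region's total the first 3 had 0.13, -0.44 and -0.67. At an observed/expected of 1.3, 265 windows were enriched in 1A2 and 1F4, 255 still in 1B1 and 132 in the treated library. At 2 these were 70, 56 and 5, and with unbalanced reads 276, 265 and 141. Except where named, the cause was not tested. With the central bin pair alone 2 of the 4 focal contacts were kept. Precision is limited by reads per window, and there is no replicate.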
